A study of Homo sapiens with 4 samples.

Results

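The 43 genes described here act in DNA repair and in the checkpoint signalling that goes with it. They were chosen by name and pathway, with earlier results of these arrays known, as 12 genes of homologous recombination, 9 of the Fanconi anaemia pathway, 3 of mismatch repair, 6 of end joining, 7 of excision repair and 6 of checkpoint signalling. All 43 were represented on the arrays, by 60 probes, and they are set beside the 18755 named genes with a value on each array. For 41 of the 43 the brightest probe could be used, and in all 41 it was well above background on every array. XRCC2 and FANCI had no usable value on every array and are described separately from the 41 where they arise.

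Hs746T, an established gastric carcinoma cell line that carries both an amplification and an exon-skipping mutation of the receptor tyrosine kinase gene MET, was profiled on 4 single-colour Agilent human arrays to ask which genes depend on MET. One array each was made from cells given the vehicle DMSO, cells given the MET kinase inhibitor PHA665752, cells transfected with a scrambled control siRNA (sc siRNA) and cells transfected with an siRNA against MET (MET siRNA). The siRNA samples were taken 48 h after transfection, while the dose and duration of PHA665752 for the array are not given in the sources used here. With 1 array per condition, no spread between cultures could be had and no test was made. All 4 arrays came from a single cell line on a single slide.

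Homologous recombination copies an intact sister DNA molecule to mend a broken one and is used after the genome has been replicated, whereas end joining rejoins broken ends at any stage of the cell cycle. The Fanconi anaemia pathway unhooks crosslinks between the strands and hands the break to recombination. Mismatch and excision repair replace wrong or damaged bases, and the ATR and ATM kinases, with CHEK1 and CHEK2 below them, hold the cell cycle while damage or stalled replication persists. Many of these genes are known to be transcribed most in late G1 and S phase, under the E2F transcription factors, in proliferating cells of many tissues.

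The promoter windows of the genes were therefore searched for E2F letters, and those of 7 genes are shown here because they hold such letters but belong to genes with very different ratios. Promoters came from RefSeq on GRCh38.p14, from 250 bases before the transcription start to 50 bases from it, and 38 of the 43 genes had one. Those of RAD54B, NBN, FANCI, XRCC5 and PRKDC were not in the table. An E2F match was any of TTTCCCGC, TTTCGCGC, TTTGCCGC or TTTGGCGC on either strand, shown in capitals, and positions are counted from the first transcribed base as 1, with the base before it as -1. The first 5 sequences belong to genes that fell by more than 2-fold with PHA665752, and the last pair to genes that did not fall.
EXO1, chr1:241848139-241848218, plus strand: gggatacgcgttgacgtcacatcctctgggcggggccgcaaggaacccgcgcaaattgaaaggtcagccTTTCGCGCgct
FANCA, chr16:89816776-89816855, minus strand: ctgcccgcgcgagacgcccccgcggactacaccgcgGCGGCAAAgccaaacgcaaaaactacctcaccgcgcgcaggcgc
UNG, chr12:109098073-109098152, plus strand: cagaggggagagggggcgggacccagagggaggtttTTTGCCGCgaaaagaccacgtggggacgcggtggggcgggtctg
FANCD2, chr3:10026372-10026451, plus strand: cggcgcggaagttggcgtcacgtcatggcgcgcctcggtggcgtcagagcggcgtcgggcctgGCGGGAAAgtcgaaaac
TOPBP1, chr3:133661927-133662006, minus strand: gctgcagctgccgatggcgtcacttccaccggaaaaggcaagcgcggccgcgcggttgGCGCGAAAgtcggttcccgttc
PMS2, chr7:6009106-6009185, minus strand: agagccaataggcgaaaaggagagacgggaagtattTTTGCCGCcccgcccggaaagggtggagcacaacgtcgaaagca
XPC, chr3:14178772-14178851, minus strand: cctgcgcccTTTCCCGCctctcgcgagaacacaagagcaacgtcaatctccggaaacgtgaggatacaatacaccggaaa
Each sequence is written 5′ to 3′ on the strand of its gene. The letters lay across or just behind the start in FANCD2, TOPBP1 and EXO1, at positions -2 to 6, -7 to 1 and 5 to 12. In UNG and PMS2 they lay at -63 to -56 and -43 to -36, and in FANCA and XPC farther upstream, at -172 to -165 and -241 to -234.

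Signals below are Feature Extraction's processed signals, in linear units before scaling, and always follow the order DMSO, PHA665752, sc siRNA and MET siRNA. Ratios are differences of log2 signal after the 75th percentile of each array was subtracted, and the words rose and fell are kept for changes of more than 2-fold. The noise between spots of 1 array came to 0.0768 for a log2 ratio and does not cover differences between cultures. MET itself, the target of both treatments, gave signals of 221451, 100492, 190010.0 and 77854. Its log2 ratio was -0.93 for PHA665752 over DMSO and -1.33 for MET siRNA over sc siRNA. Of 11 epithelial and gastric markers, EPCAM and the keratin genes KRT7, KRT8, KRT18 and KRT19 were well above background on all 4 arrays. So were MUC1 and, at lower signals of 60.5 to 87.6 and 41.7 to 53.8, TFF1 and TFF2. The adhesion gene CDH1 reached only 10.4 to 33.0, GKN1 was not well above background on any array, and CLDN18 had no usable probe. All 4 mesenchymal markers with a usable probe, CDH2, ZEB1, FN1 and SNAI2, were well above background on every array, with a summed signal of 8342 to 11995 per array. Of 6 immune and endothelial markers, PTPRC, CD68, PECAM1 and VWF were well above background on every array (summed signal 7741 to 13079, most of it CD68) and CD3E of T cells was on none. With PHA665752 over DMSO the log2 ratio was -2.39 for PECAM1, 2.77 for VWF, 1.96 for FN1 and 1.70 for MUC1. Their part in the ratios below was not tested.

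With PHA665752, 24 of the 41 genes fell and 1 rose by more than 2-fold, against 8.04% of 14322 genes that fell and 13.1% that rose in the same comparison (12.3% and 9.07% when the arrays were scaled to the 50th percentile). The median log2 ratio of the 41 was -1.32, or 2.50-fold lower, beside 0.075 for all genes. Of the 41, 38 lay below 0, beside 45.1% of all genes. Because these genes were picked with results in view, the contrast is a description, and 81 further genes of the same pathways, described below, had 17 falls and a median of -0.31. With MET siRNA over sc siRNA none of the 41 passed 2-fold in either direction, where 0.696% of 13647 genes fell and 2.04% rose (1.75% and 1.18% when scaled to the median of probes well above background), and the median was -0.03 beside -0.02 for all genes. Between the controls, sc siRNA over DMSO, again none of the 41 passed 2-fold, where 1.16% of 14274 genes fell and 2.89% rose. However, 38 of the 41 lay below 0 (33 with normexp background correction), beside 51.5% of all genes. Their median was -0.27 beside -0.01 for all genes. The last comparison shares the DMSO array with the first and the sc siRNA array with the second, so its values are set beside theirs and not counted as a further observation.

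**Figure D1:**
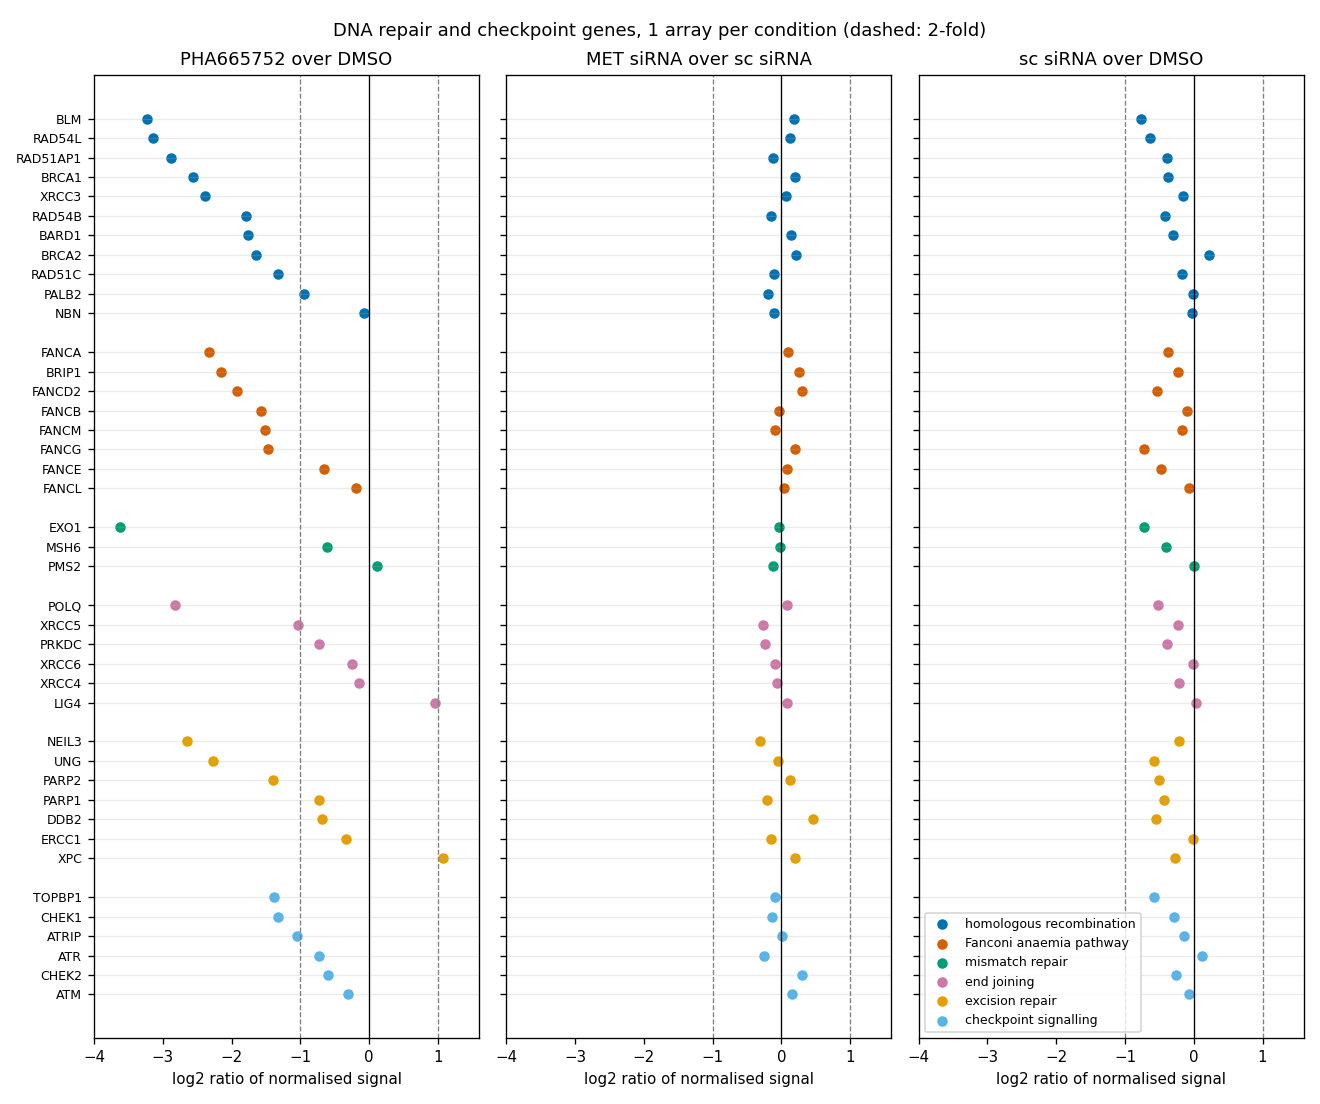
Log2 ratio of the normalised signal of each of the 41 genes (1 point per gene, 1 array per condition, no error bars) for PHA665752 over DMSO, MET siRNA over sc siRNA and sc siRNA over DMSO, coloured by pathway, with dashed lines at 2-fold. The inhibitor ratios run from -3.62 to 1.07, while the siRNA ratios stay between -0.32 and 0.45 and those of the controls between -0.77 and 0.23.

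Among the chosen genes, homologous recombination held the most falls with PHA665752, 9 of 11 beside 8.04% of all genes, and a median log2 ratio of -1.78. The choice was made with results known. Of 20 further genes of this pathway with a ratio, 7 fell, and their median was -0.60. BLM, a helicase that takes apart joined recombination intermediates, gave signals of 1409, 130.0, 695 and 814, and was 9.34-fold lower with PHA665752 (log2 ratio -3.22). RAD54L, a motor protein that helps the recombinase invade the sister DNA, gave 6105, 597, 3308 and 3737, which is 8.82-fold lower (-3.14). RAD51AP1, which stimulates the same invasion step, gave 996, 116, 638 and 606 and was 7.37-fold lower (-2.88). In all 3 genes the PHA665752 array was the lowest and the DMSO array the highest, with the siRNA arrays between them.

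BRCA1 and BARD1 pair as a ubiquitin ligase that starts recombination at broken ends. The BRCA1 signals were 1116, 163, 721 and 858, a ratio of -2.56 or 5.89-fold lower, and those of BARD1 were 1112, 282, 759 and 861, a ratio of -1.77 or 3.40-fold lower. BRCA2, which loads the recombinase onto single-stranded DNA, gave 126, 34.6, 124 and 148 and was 3.14-fold lower (-1.65), or 1.66-fold with normexp background correction. It stood apart from its partners between the controls, since sc siRNA over DMSO was 0.23 for BRCA2 but -0.38 for BRCA1 and -0.30 for BARD1. PALB2, which links BRCA1 to BRCA2, remained just inside 2-fold at 333, 148, 278 and 251, with a ratio of -0.95.

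XRCC3 and RAD51C form a complex that steadies the recombinase filament. XRCC3 gave 8699.6, 1434, 6524 and 7053, 5.23-fold lower with PHA665752 (-2.39), and RAD51C gave 8649, 2982, 6455 and 6176, 2.50-fold lower (-1.32). RAD54B, a relative of RAD54L, gave 2095, 525, 1321 and 1233 and was 3.44-fold lower (-1.78), and its second probe, matched to another transcript accession, gave -1.55. NBN, a subunit of the complex that first senses a break, was the exception of the group, with 1849.6, 1514, 1522 and 1459.5 and a ratio of -0.07, which is within the noise between spots. XRCC2, a further recombinase relative, carried a background outlier mark on the PHA665752 and MET siRNA arrays. With that mark ignored its signals were 559, 181, 412 and 381 and its ratio for PHA665752 over DMSO was -1.42.

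In the siRNA pair the 11 recombination genes had a median of 0.07 and ranged from -0.20 for PALB2 to 0.21 for BRCA2. BRCA1 was at 0.20, BLM at 0.18 and RAD54L at 0.13, while RAD54B was at -0.15 and RAD51AP1 at -0.12. The values of BRCA1, BLM and RAD54L turned to -0.10, -0.12 and -0.17 when arrays were scaled to the median of probes well above background, so their direction is not settled.

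In the Fanconi anaemia pathway 6 of 8 genes fell with PHA665752, beside 8.04% of all genes, with a median of -1.54. FANCA, a scaffold of the core complex, gave 899, 154, 581 and 644 and was 5.03-fold lower (-2.33), and its other probes gave -2.95 and -1.96. FANCG, which binds FANCA, gave 7820.4, 2428, 3991 and 4725 (2.78-fold lower, -1.47), and FANCB, the X-linked core subunit, gave 252, 73.3, 196 and 199 (2.96-fold lower, -1.56, or 1.90-fold with normexp). FANCM, the DNA translocase that brings the core complex to crosslinks, gave 2579, 780.1, 1922 and 1859 and was 2.85-fold lower (-1.51).

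The smallest ratios of the group belonged to FANCL and FANCE. FANCL, the ubiquitin ligase subunit, gave 5389, 4069, 4297 and 4554 with a ratio of -0.19, and FANCE, which bridges the core complex to its substrate, gave 7312, 4015, 4427 and 4838 with -0.65. Neither passed 2-fold. A second FANCL probe, matched to another transcript accession, pointed the other way at 0.56, and it was singled out after its values were seen.

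FANCD2, which the core complex ubiquitinates, gave 1374, 314, 799 and 1013 at its brightest probe, 3.77-fold lower with PHA665752 (-1.91). Its partner FANCI carried a background outlier mark on the DMSO array, and with the mark ignored its signals were 4473, 1027, 2829 and 3204 and its ratio was -1.92. BRIP1, the helicase that works with BRCA1 after unhooking, gave 566, 109, 405 and 502 and was 4.46-fold lower (-2.16).

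FANCD2 was the gene whose probes disagreed most. A_33_P3257808 and A_23_P143994, both matched to NM_001018115, gave -1.91 and -1.70 for the inhibitor pair but 0.30 and 1.05 for the siRNA pair and -0.53 and -0.78 between the controls. The third probe, A_23_P345678, matched to NM_033084, was dim, with signals of 37.6, 6.33, 102 and 19.3, and was not well above background with PHA665752, which gives at least 2.62-fold lower. On that probe MET siRNA was 5.46-fold below sc siRNA (-2.45) while sc siRNA was above DMSO (1.69), so its direction opposed the other probes in both of these pairs. Of the 13 genes with several probes, FANCD2 was the only one with a spread of more than 2-fold, which it had in the siRNA and control pairs, and no gene had one in the inhibitor pair.

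Mismatch repair was uneven. EXO1, the exonuclease that removes the mismatched strand and also resects broken ends, gave 1100.2, 77.1, 558 and 563 and fell 12.3-fold with PHA665752 (-3.62), the lowest ratio of the 41 genes and rank 24 from the lowest among 14322. With normexp it was 7.07-fold lower (-2.82), and RAD54L was then the lowest of the 41 at -3.13. MSH6, a subunit of the mismatch sensor, gave 12807, 7196, 8143 and 8260.0 (-0.62), and PMS2, the nicking subunit of the next complex, gave 1077, 1003, 904 and 860.0 (0.11). The 4 PMS2 probes ranged from 0.08 to 0.20, and PMS2 has near-identical pseudogenes in the genome, so its signal may include theirs. For MET siRNA over sc siRNA the 3 genes were at -0.03, -0.03 and -0.12.

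In end joining the classical factors and the alternative polymerase differed. POLQ, the polymerase of microhomology-mediated joining, gave 1288, 156, 751 and 819 and was 7.10-fold lower with PHA665752 (-2.83). Of the classical pathway, XRCC5 alone passed 2-fold, with 5409, 2289, 3856 and 3302 (2.04-fold lower, -1.03). This call was lost with quantile normalisation (-0.92) and against the sc siRNA and MET siRNA arrays (-0.79 and -0.52). XRCC5 and XRCC6 together form the Ku ring that caps broken ends, and XRCC6 gave 129134, 93475, 107069 and 103515, only -0.25.

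PRKDC, the kinase that Ku recruits, gave 5039, 2614, 3239 and 2836 (-0.73), and its second probe gave -0.79. XRCC4, the scaffold of the ligase, gave 437, 342, 316 and 311 (-0.14). LIG4, the ligase itself, was dim and higher with PHA665752, at 42.0, 70.4, 36.2 and 39.6. Its ratio of 0.96 lay just inside 2-fold and was 0.56 with normexp. The median of the 6 end joining genes was -0.49 for the inhibitor pair, -0.08 for the siRNA pair and -0.23 between the controls.

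Of the 7 excision repair genes 3 fell and 1 rose with PHA665752, beside 8.04% and 13.1% of all genes, so the single rise is near the general share. UNG, the glycosylase that removes uracil from DNA, gave 19859, 3562, 11136 and 11166 and was 4.81-fold lower (-2.26). NEIL3, a glycosylase for oxidised bases and some crosslinks, gave 247, 34.0, 178 and 148 and was 6.25-fold lower (-2.64), or 2.50-fold with normexp. PARP2 gave 9741, 3205, 5778 and 6489 and was 2.62-fold lower (-1.39). PARP1, which like PARP2 makes poly(ADP-ribose) at breaks, gave 4550.4, 2366, 2829.9 and 2534 and did not pass 2-fold at -0.73, with its second probe at -0.83.

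The damage sensors of nucleotide excision repair went in different directions. XPC gave 318, 576, 222 and 262 and rose 2.10-fold with PHA665752 (1.07), the only rise past 2-fold among the 41 genes. It stayed within 2-fold in 3 of 9 alternatives, all of them other scalings, with 0.82 as the lowest ratio. DDB2, which hands ultraviolet lesions to XPC, gave 6516, 3495, 3736 and 5286, a ratio of -0.68 at the brightest probe and -1.16 at the other. DDB2 also had the highest siRNA ratio of the 41 at 0.45, with 0.41 at the other probe. Its sc siRNA signal lay below both DMSO and MET siRNA (sc siRNA over DMSO, -0.55). ERCC1, part of the nuclease that cuts beside a lesion, gave 9989, 6832, 8275 and 7702 with -0.33 at the brightest probe and -0.29 at the other.

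Of the 6 checkpoint genes 3 fell with PHA665752, beside 8.04% of all genes, and the median was -0.89. TOPBP1, which activates the ATR kinase at stalled forks, gave 1196, 394, 672 and 651 (2.61-fold lower, -1.39). CHEK1, the effector kinase below ATR, gave 2942, 1014, 2020.4 and 1889 (2.50-fold lower, -1.32), and ATRIP, the partner that carries ATR to single-stranded DNA, gave 274, 114, 209 and 217 (2.07-fold lower, -1.05, or -0.78 with normexp). Against the sc siRNA array only CHEK1 of the 6 was lower by more than 2-fold (-1.03), and against the MET siRNA array none was. Of all genes 8.42% and 6.82% were lower in these comparisons. ATR itself gave 2426, 1259, 2219 and 1914, a ratio of -0.73 that did not pass 2-fold, with its second probe at -0.68.

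On the branch that answers double-strand breaks, CHEK2 gave 496, 284, 346 and 440.4 (-0.59) and ATM gave 389, 271, 309.6 and 356 (-0.31). CHEK2 has transcribed near-copies in the genome, which its probes may also detect. The other ATM probe, A_23_P35916, spotted 10 times, gave 168, 202, 175 and 161 and a ratio of 0.47, so the sign for ATM depended on the probe. This discrepancy was singled out after its values were seen. In the siRNA pair the checkpoint genes ran from -0.26 for ATR to 0.30 for CHEK2.

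**Figure D2:**
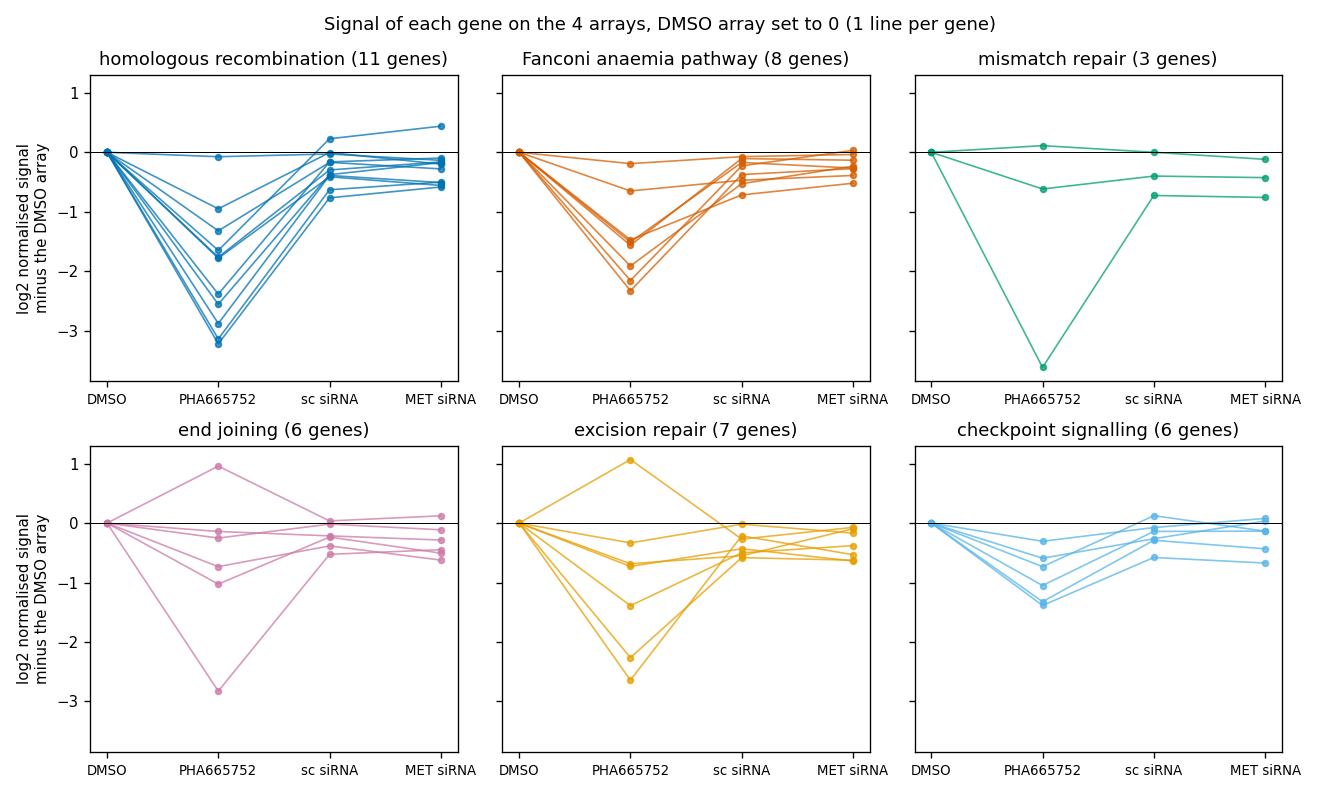
Log2 normalised signal of each gene on the 4 arrays after its DMSO value was set to 0, 1 line per gene and 1 panel per pathway, with the order of arrays on the horizontal axis being arbitrary. The PHA665752 array was the lowest for 36 of the 41 genes and the DMSO array the highest for 33.

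The lines of signal by array had 1 shape in most of the genes. The PHA665752 array was the lowest of the 4 for 36 of the 41 genes, against 35.2% of the 13074 genes well above background on all arrays. The DMSO array was the highest for 33 of the 41, against 25.7% of those genes. LIG4 and XPC, highest with PHA665752, and BRCA2, highest with MET siRNA, were among the genes that departed from this order.

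Since the sc siRNA array was lower than the DMSO array for most of these genes, the inhibitor array was also set against it, a choice made after the data were seen. Against sc siRNA 19 of the 41 genes were lower by more than 2-fold and XPC remained the 1 that was higher, beside 8.42% and 12.4% of 14389 genes, with a median of -0.91. EXO1 was then at -2.89, RAD54L at -2.51, RAD51AP1 at -2.49 and BRCA1 at -2.18, while FANCG, XRCC5, PARP2, ATRIP and TOPBP1 no longer passed 2-fold. Against the MET siRNA array the counts were again 19 and 1, beside 6.82% and 8.22% of 13925 genes, the median was -0.92, and FANCG, XRCC5, CHEK1, ATRIP and TOPBP1 no longer passed 2-fold. These comparisons reuse arrays of the main pairs, and the arrays they set against each other differ in transfection as well as in the inhibitor. The MET siRNA array also had MET itself lowered, so it is not a plain transfection control.

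Replicate spots were available for 8 probes of these genes, each printed 10 times per array. On the log2 scale their SD within 1 array was 0.0289 at the smallest and 0.195 at the largest. For BRCA1 the DMSO spots ran from 1019 to 1212 and the PHA665752 spots from 154 to 173, and for EXO1 from 1064 to 1153 and from 73.2 to 81.0. For BRCA2, the dimmest of the falling genes with replicate spots, they ran from 111 to 140 and from 29.4 to 47.0. Every PHA665752 spot was below every DMSO spot for 7 of the 8 probes before scaling and for 6 after it, where XRCC4 was lost, and the ATM probe was the exception in both. Spots of 1 array share 1 RNA sample, so they show the precision of the print and not that of the treatment.

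**Figure D3:**
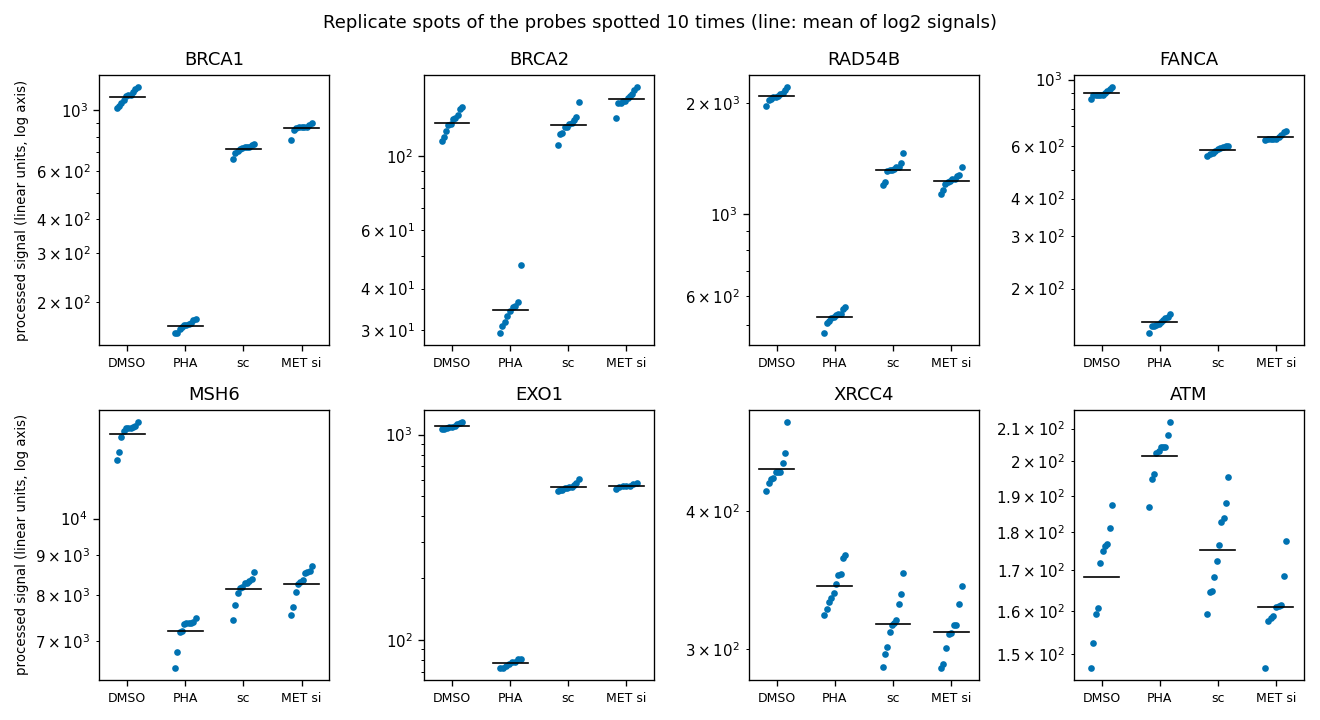
Processed signal (linear units on a log axis, before scaling) of every usable spot of the 8 probes printed 10 times, on the 4 arrays, with a line at the mean of the log2 signals. The DMSO and PHA665752 spots of BRCA1 (1019 to 1212 and 154 to 173) and of EXO1 (1064 to 1153 and 73.2 to 81.0) are far apart, whereas for ATM the PHA665752 spots are the highest.

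The inhibitor and siRNA pairs share no array, although all arrays share 1 slide, so their ratios could be set against each other. Across the 41 genes Pearson's r was -0.08 and Spearman's rho -0.13, beside 0.51 and 0.53 across the 13415 genes with a ratio in all 3 pairs. Both are taken over genes, not over independent samples, and describe these arrays only. The largest siRNA ratio in size was 0.45 among the 41 genes and 3.63 among the 13415. So narrow a range limits any correlation, and the coefficients of the 2 sets are not on an equal footing. Both ratios were below 0 for 20 of the 41 genes and above 0 for 2, while 18 were lower with the inhibitor and higher with the siRNA, and 1, PMS2, was the reverse. Across the 13415 genes the counts, in the same order, were 4622, 4703, 1572 and 2518. The sign was shared by 53.7% of the 41 genes and by 69.5% of the 13415. The tally of the 41 depends on the scaling, since 40 of the 41 siRNA ratios were below 0, in place of 21, when arrays were scaled to the median of probes well above background. The siRNA ratio was smaller in size than the difference between the controls for 29 of the 41, beside 7130 of the 13415 genes. It was smaller than the noise between spots for 8 of the 41, beside 3379 of the 13415. The inhibitor ratio was larger than the difference between the controls for 40 of the 41, beside 9970 of the 13415. The control pair shares 1 array with each of the other pairs, so these sizes are not independent.

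**Figure D4:**
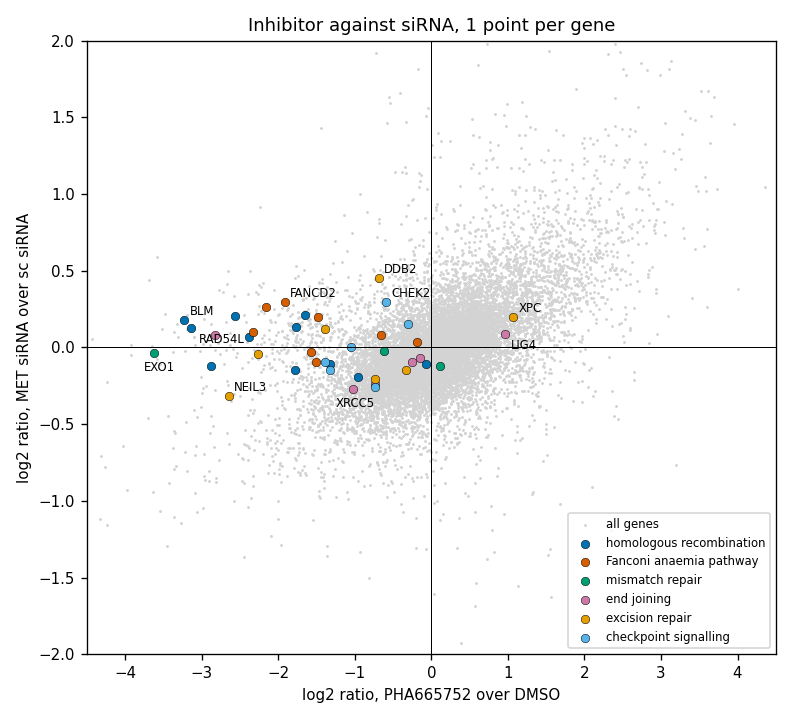
Log2 ratio for MET siRNA over sc siRNA (vertical) against PHA665752 over DMSO (horizontal), 1 point per gene, with the repair and checkpoint genes coloured by pathway over all other genes in grey (13440 genes, 40 of them outside the axes). The coloured points spread from -3.62 to 1.07 along the horizontal axis and only from -0.32 to 0.45 along the vertical one.

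Further genes of the same pathways, 87 in number and 81 with a ratio, moved less with PHA665752, with a median of -0.31. By more than 2-fold, 17 were lower and 1 was higher, beside 8.04% and 13.1% of all genes. The falls were 7 of 20 in homologous recombination, 3 of 10 in the Fanconi anaemia pathway, 6 of 14 in checkpoint signalling, 1 of 26 in excision repair, and 0 of 5 in mismatch repair and 0 of 6 in end joining. The lowest ratio belonged to CLSPN, the adaptor through which ATR activates CHEK1, with signals of 1751, 99.2, 952 and 950.0 (-3.93). CDC25A, the phosphatase that CHEK1 marks for destruction, followed at -2.88, and FEN1, the flap nuclease of replication and base excision repair, at -2.65. NEIL1, a glycosylase for oxidised bases, rose from 48.9 with DMSO to 161 with PHA665752 (1.93). The next highest ratios, of WDR48, the cofactor of the enzyme that removes ubiquitin from FANCD2, and of TP53BP1, which steers breaks toward end joining, were 0.86 and 0.84 and did not pass 2-fold. In the siRNA and control pairs none of the 81 passed 2-fold, with medians of -0.0031 and -0.18. Of all genes 0.696% fell and 2.04% rose in the siRNA pair, and 1.16% fell and 2.89% rose between the controls.

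Of 25 genes of S phase and mitosis, such as MKI67, TOP2A, CCNA2 and the MCM helicase genes, 24 had a ratio. All 24 were lower by more than 2-fold with PHA665752, beside 8.04% of all genes, with a median of -2.12. Their median was 0.09 for MET siRNA over sc siRNA and -0.52 for sc siRNA over DMSO. In the latter pair all 24 were below 0, beside 51.5% of all genes. The medians of the repair and checkpoint genes lay between those of all genes and those of this list in the inhibitor and control pairs. In bulk RNA, fewer cells of a type and less RNA per cell cannot be told apart, and the part of cell cycling in the repair gene ratios was not tested. Of 12 reference genes 1, PGK1 at -1.08, fell by more than 2-fold with PHA665752, beside 8.04% of all genes, and their median was -0.08.

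**Figure D5:**
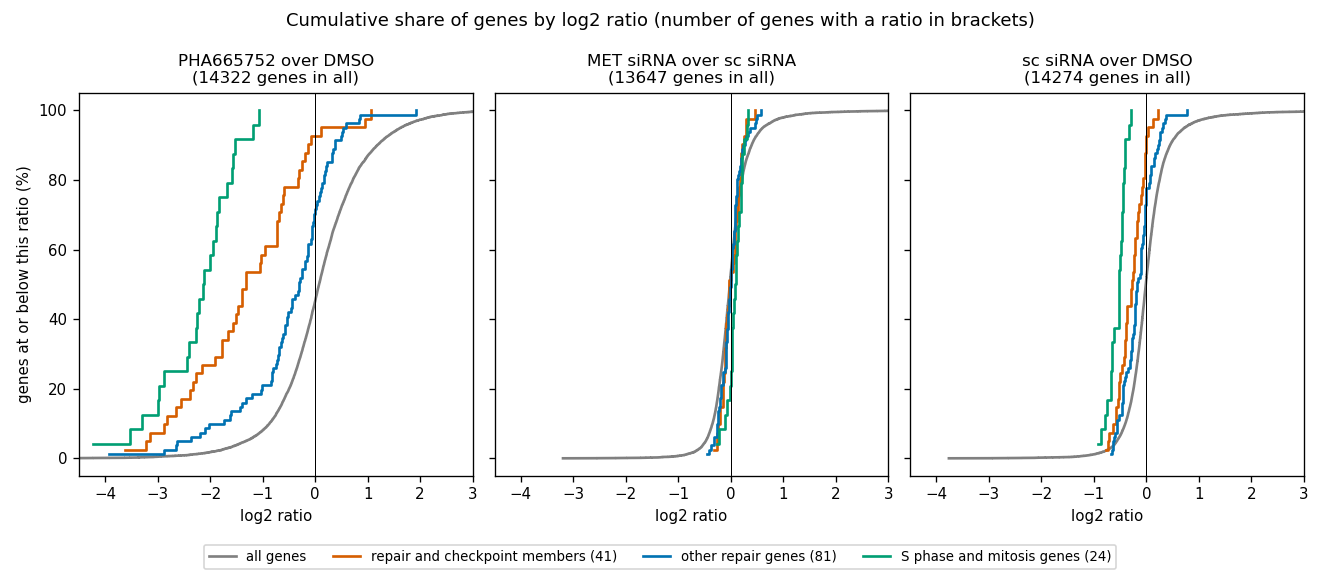
Cumulative share of genes (percent, vertical) at or below each log2 ratio (horizontal) in the 3 pairs, for all genes, the 41 repair and checkpoint genes, 81 other repair genes and 24 genes of S phase and mitosis. With PHA665752 the medians are 0.075, -1.32, -0.31 and -2.12 in that order, and with MET siRNA the curves lie together near 0.

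The E2F letters of the promoter windows were found in 10 of the 38 repair and checkpoint genes with a window (26.3%), beside 3.99% of all 27305 genes with a window. Counted by window, they were in 11 of 58 (19.0%), beside 3.31% of all 35116. Genes and motifs were chosen with earlier results known. The 10 genes were XRCC2, FANCA, FANCD2, MSH6, PMS2, EXO1, XRCC6, UNG, XPC and TOPBP1. The 9 of these with a ratio had a median of -1.39 with PHA665752, ranged from -3.62 for EXO1 to 1.07 for XPC, and included 5 that fell. The 28 genes with a window, a ratio and no such letters had a median of -1.36, with 17 that fell, where 8.04% of all genes fell. Only these exact forms were searched, and the part of E2F factors in the ratios was not tested. The cell cycle homology letters TTTGAA or TTCGAA were in 8 of the 38 genes (21.1%) beside 19.5% of all, and the CCAAT letters in 22 (57.9%) beside 39.7%. The median inhibitor ratio was -1.77 with and -1.32 without the former, and -1.19 with and -1.39 without the latter. A match is a run of letters and not a measured binding site.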

How the data were processed

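Total RNA of Hs746T cells was hybridised in 1 colour (Cy3) to 4 Agilent human arrays, 1 per condition. The authors deposited Feature Extraction output (version 11.5.1.1 in the file headers, annotation on hg19), in which the processed intensity of each spot is linear, background-subtracted and not normalised between arrays. The deposited series matrix equals this intensity within 0.05 for the 33128 probes spotted once, and was used as an alternative.

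Spots flagged as feature or background outliers, from 1.69% of an array (sc siRNA) to 5.58% (MET siRNA), were dropped, spots of a probe were averaged as log2, and each array's 75th percentile was subtracted. Between 61.1% and 68.2% of the 34127 probes were well above background, and no spot was saturated. Where just 1 array of a pair had the probe well above background, the ratio is a bound. Names came through RefSeq accessions in a table of GRCh38.p14 (25771 probes, 75.5%), whose promoter coordinates are those printed. The brightest probe with a value on each array stood for its gene. Other probes are given where they differed by more than 2-fold, with further second probes beside them.

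Every gene was named by pathway, and of the further repair genes the 3 largest falls and rises. The genes, lists and motifs were chosen with earlier results of these data known. No test could be made with 1 array per condition, and this number sets the precision. The ratio rules were run on simulated data and recovered 200 of 200 changed probes. All of these were set well past 2-fold at bright signals, so full recovery was fixed by the settings and checks the code only. The accuracy of the rules on the real arrays, where some ratios lie near 2-fold, was not tested. The 9 alternatives were the 50th percentile, the median of probes well above background, quantile normalisation, normexp (offset 50), no bounds at all, dim probes kept as measured, the median over a gene's probes, background outlier marks ignored and the series matrix. A further 2, chosen after seeing the data, replaced DMSO by either siRNA array. Python 3.11.15, numpy 2.4.6, pandas 2.3.3, matplotlib 3.10.9, R 4.3.3 and limma 3.58.1 were used.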

Additional observations from a re-analysis of the deposited data

How the results depend on the processing

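No paired analysis was possible because each condition had 1 array, and no array could be left out. Over the 9 alternatives, the number of repair and checkpoint genes lower by more than 2-fold with PHA665752 was between 21 and 26. The 26 came with background outlier marks ignored and with the series matrix, where XRCC2 and FANCI also had ratios, making 43 genes. Of the 24 main falls, 20 passed 2-fold in all 9. The falls lost were BRCA2 (-0.73), FANCB (-0.93) and ATRIP (-0.78) with normexp, which also moved NEIL3 to -1.32 and EXO1 to -2.82, and XRCC5 (-0.92) with quantile normalisation. XPC no longer passed 2-fold with the 50th percentile, the median of probes well above background or quantile normalisation, where the number of genes higher was 0. The signs of FANCL, PMS2 and ATM changed under some alternatives. The median for the inhibitor pair was -1.57 with the 50th percentile, -1.42 with the median of probes well above background and -1.02 with normexp. It was -0.91 when the sc siRNA array replaced DMSO and -0.92 when the MET siRNA array did. The 50th percentile moved the median of all genes by -0.25 in this pair, so that the repair genes lay -1.40 from it in either scaling. The median for sc siRNA over DMSO was -0.37 with the 50th percentile. The median for MET siRNA over sc siRNA was -0.33 with the median of probes well above background, which moved all genes by -0.30. Only 19 of the 41 genes kept their sign in this pair under all 9 alternatives, so the directions of small siRNA ratios depend on the scaling, and none passed 2-fold in any. All 41 genes were well above background on every array, so none of their ratios is a bound. The alternatives with no bounds and with dim probes kept could therefore not change them. The series matrix nearly repeated the alternative with background outlier marks ignored.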
